A study of Mus musculus with 20 samples.

Results

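The NCoR1 corepressor complex was followed at the level of its messenger RNAs in mouse brain. Its members here are 10 genes, taken by symbol from the deposited expression tables and making up 10 of the 23412 symbols listed. They are Ncor1, Hdac3, Tbl1x, Tbl1xr1, Gps2, the class IIa deacetylases Hdac4, Hdac5, Hdac7 and Hdac9, and Zbtb33. Amygdala and hippocampus were dissected at postnatal day 21, and each tissue gave 3 NCoR1-KO, 3 SMRT-KO and 4 control libraries, 20 in all. The knockout mice carried a Cre recombinase driven from the Snap25 locus, Snap25-IRES2-cre, which is active in neurons broadly, together with floxed alleles, which in NCoR1-KO are those of Ncor1. Control mice may or may not have carried Cre or floxed alleles: the sources used here do not give it, nor the sex or strain of any mouse. Nothing in the labels says that libraries came from different mice, so each p-value measures the spread between these libraries, which may be technical. Both knockouts were set against the same controls, and their differences from control are therefore not independent.

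NCoR1 is a large scaffold protein that nuclear receptors without an activating ligand, and several other repressors, bring to DNA. HDAC3, the histone deacetylase of the complex, is catalytically active when bound to NCoR1 or to the related corepressor SMRT. TBL1X, TBL1XR1 and GPS2 form the rest of the core, class IIa deacetylases dock onto it and shuttle between nucleus and cytoplasm in neurons, and ZBTB33 (Kaiso) is a DNA-binding protein that recruits NCoR1.

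Levels are given in TPM, a measure of transcript abundance in which values are scaled for transcript length and to the same total in each library. TPM keep no sequencing depth, so no counting error can be given for a value. Between 14153 and 14509 genes reached 1 TPM in amygdala libraries, and between 13787 and 14391 did so in hippocampus libraries. The 6 genes listed as hippocampal markers summed to 182 to 224 TPM in amygdala libraries and to 622 to 882 TPM in hippocampus libraries, so the tissue labels and these markers went together. The 6 genes listed for amygdala summed to 144 to 206 TPM in amygdala libraries and 90.3 to 146 TPM in hippocampus libraries, so this list separated the tissues less well. Snap25, the gene that carries the Cre insertion, had 1123 to 1228 TPM in NCoR1-KO amygdala and 1053 to 1207 TPM in SMRT-KO amygdala, against 1825 to 2228 TPM in control amygdala. In hippocampus it had 1257 to 1346 TPM in NCoR1-KO libraries and 1090 to 1699 TPM in SMRT-KO, against 2204 to 2329 TPM in controls. The 7 other neuronal markers measured do not carry the insertion and summed to 3733 to 4048 TPM in NCoR1-KO hippocampus and 3495 to 4787 TPM in SMRT-KO hippocampus, against 3761 to 4010 TPM in control hippocampus. In amygdala they summed to 4245 to 4570 TPM in NCoR1-KO and to 4252 to 4402 TPM in SMRT-KO, against 4045 to 4535 TPM in controls.

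All 10 members were above the filter of 1 TPM in every group and were tested. In control amygdala, Hdac3 was the highest member at 132 ± 4.73 TPM, followed by Ncor1 at 108 ± 25.1 TPM and Hdac5 at 87.3 TPM (SD, n = 4). Tbl1x averaged 49.5 TPM there, Tbl1xr1 46.9 TPM, Hdac9 36.4 TPM, Zbtb33 27.9 TPM, Gps2 25.5 TPM, Hdac4 23.7 TPM and Hdac7 17.1 TPM. Neighbours in this order whose libraries overlapped were Hdac3 with Ncor1, Ncor1 with Hdac5, Tbl1x with Tbl1xr1, Zbtb33 with Gps2 and Gps2 with Hdac4. In control hippocampus, Ncor1 (117 TPM) and Hdac3 (115 TPM) overlapped at the top, and Hdac5 followed at 74.2 TPM. Tbl1xr1, at 51.4 TPM, stood above Tbl1x, at 39.1 TPM, in hippocampus, with no overlap between their libraries. The order below them, from Hdac9 at 31.2 TPM to Hdac7 at 14.6 TPM, was that of amygdala.

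**Figure D1:**
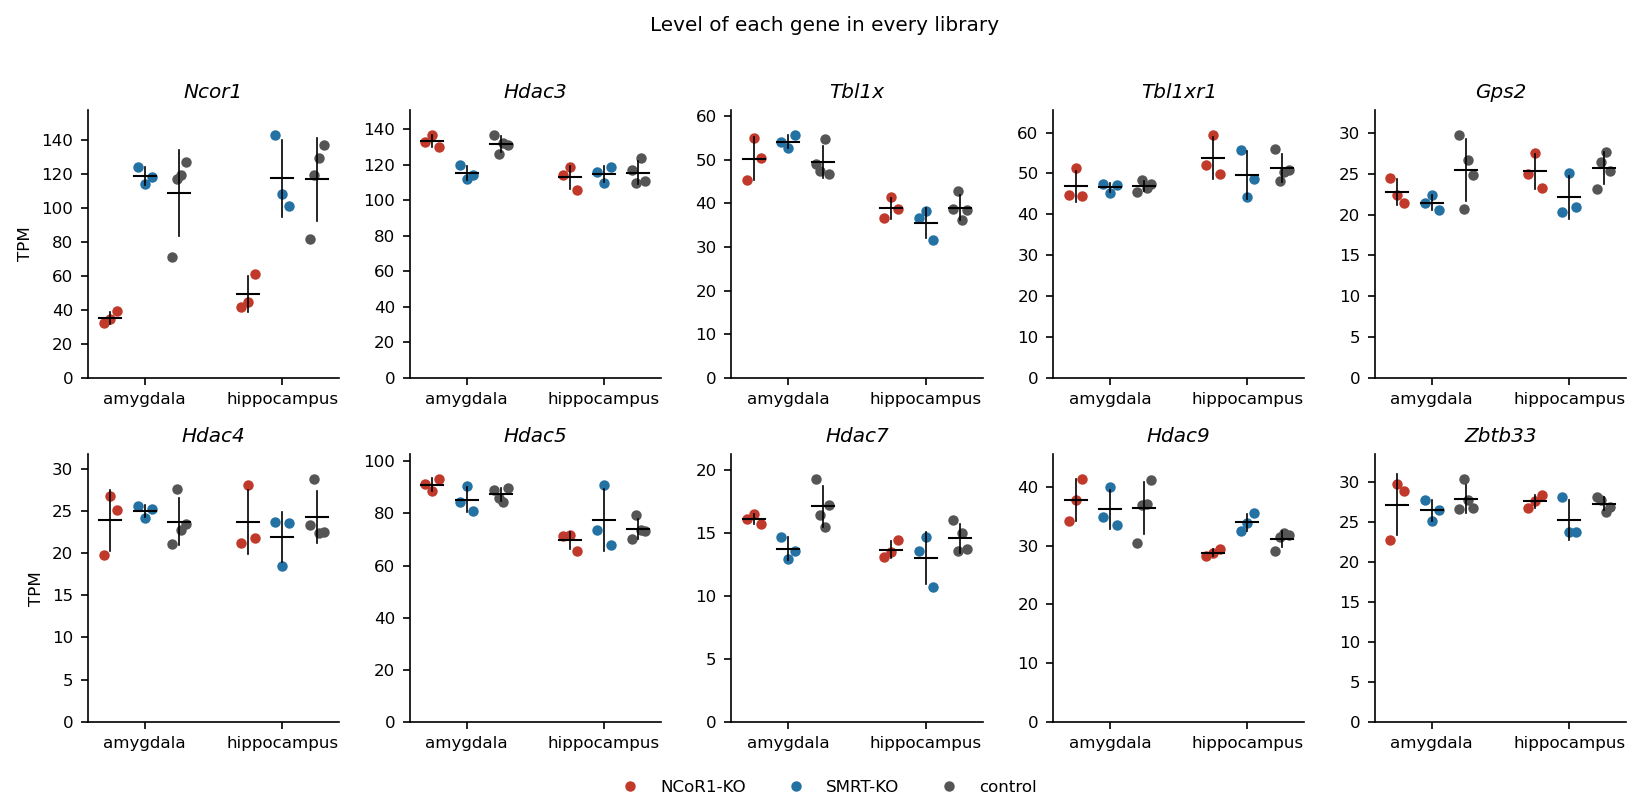
Level of each of the 10 members in TPM in all 20 libraries, amygdala at the left and hippocampus at the right of each panel. Points are libraries, coloured by genotype, and horizontal bars are group means. Ncor1 stands below all other libraries of its tissue at 32.1 to 39.0 TPM in NCoR1-KO amygdala and 41.9 to 61.1 TPM in NCoR1-KO hippocampus. SMRT-KO libraries stand apart by less for Hdac3 and Hdac7 (lower in amygdala) and for Hdac9 (higher in hippocampus).

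Ncor1, the scaffold and the gene deleted in NCoR1-KO, spans chr11:62316426-62458541 of the GRCm38 (mm10) build and is read from the minus strand. The 103 bases before a RefSeq start of its transcripts are shown (chr11:62457333-62457435, minus strand, RefSeq on GRCm38.p6), since gene-level values join the transcripts of all its starts. The stretch lies inside the span of Ncor1 given above, not upstream of the whole gene. It is outside exons annotated in GENCODE M21, begins next to the end of one, and is written in the direction of transcription. It holds 10 CG pairs, is 70.9% G or C, and has 1 GC box (GGGCGG on either strand), which is in capitals.
Ncor1 before a start: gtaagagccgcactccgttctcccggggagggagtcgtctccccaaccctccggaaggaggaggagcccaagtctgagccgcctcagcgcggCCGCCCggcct

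Ncor1 fell in NCoR1-KO amygdala and was the only member to pass the test against control in any knockout. It had 32.1, 34.6 and 39.0 TPM in NCoR1-KO amygdala and 124, 114 and 118 TPM in SMRT-KO amygdala, against 71.3, 117, 119 and 127 TPM in control amygdala. All 3 NCoR1-KO libraries were below every other amygdala library, and control 1 was low among controls. The mean was 35.2 ± 3.51 TPM in NCoR1-KO (SD, n = 3), which is 32.5% of the control mean of 108 ± 25.1 TPM (SD, n = 4). The log2 difference was -1.57 ± 0.16 (SE; 95% interval -1.93 to -1.20), with an adjusted p of 0.00732 by limma's test over 14606 genes. Without NCoR1-KO replicate 2 the difference was -1.56 and the adjusted p was 0.0541, above the threshold of 0.05. Without control replicate 1 it was -1.75, with an adjusted p of 7.61e-06. In bulk tissue, fewer cells that express a gene and less RNA per cell cannot be told apart, and glia and vessel cells are outside the reach of a neuronal Cre. The sources used here do not say which exons of Ncor1 were floxed. Gene-level TPM may still count transcripts that lack only those exons. The source of the remaining Ncor1 RNA was not tested.

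In hippocampus, Ncor1 had 41.9, 44.5 and 61.1 TPM in NCoR1-KO libraries and 143, 108 and 101 TPM in SMRT-KO, against 81.6, 119, 129 and 137 TPM in controls. The NCoR1-KO libraries were again the lowest 3, with replicate 3 the highest of them and control 1 the lowest control. The 6 choroid plexus markers summed to 11560 TPM in NCoR1-KO replicate 3, against 32.5 to 5774 TPM in the other 9 hippocampus libraries, and their part in its Ncor1 value was not tested. The NCoR1-KO mean of 49.2 ± 10.4 TPM (SD, n = 3) was 42.1% of the control mean of 117 ± 24.7 TPM (SD, n = 4). The log2 difference of -1.22 ± 0.20 (SE; 95% interval -1.66 to -0.78) had an unadjusted p of 0.000109 by limma's test, the second smallest of 14501 genes. Its adjusted p was 0.79 (0.65 and a difference of -1.39 without NCoR1-KO replicate 3), so it did not pass. Without control replicate 1 the difference was -1.385, with an adjusted p of 0.230, also above the threshold. No gene passed in this comparison, where 658 genes had an unadjusted p under 0.05. The effect of NCoR1-KO on Ncor1 differed by -0.34 ± 0.28 between amygdala and hippocampus (SE; 95% interval -0.93 to 0.24; limma adjusted p = 0.998), so no difference between tissues was shown.

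In SMRT-KO libraries, Ncor1 did not pass the test against control in either tissue. The log2 difference was 0.16 ± 0.16 in amygdala (SE; 95% interval -0.20 to 0.52; limma adjusted p = 0.612) and 0.02 ± 0.20 in hippocampus (95% interval -0.42 to 0.46; adjusted p = 0.994). A change of the size seen in NCoR1-KO lay outside both intervals. Directly compared, NCoR1-KO amygdala was below SMRT-KO amygdala by a log2 difference of -1.73 ± 0.18, with a limma adjusted p of 0.0013. In hippocampus the same difference was -1.24 ± 0.21, with an adjusted p of 0.607.

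Genes beside Ncor1 on chromosome 11 were measured to see whether the lower value extended past its ends. Ttc19, which takes part in assembly of a mitochondrial respiratory complex, lies on the opposite strand and overlaps Ncor1 by 12026 bases at its 3' end. Ttc19 averaged 71.4 ± 4.01 TPM in NCoR1-KO amygdala (SD, n = 3) and 80.2 ± 4.07 TPM in SMRT-KO amygdala (SD, n = 3), against 69.2 ± 3.55 TPM in control amygdala (SD, n = 4). Pigl, an enzyme of glycosylphosphatidylinositol anchor synthesis, overlaps the other end by 82 bases on the opposite strand. Pigl averaged 9.84 ± 0.560 TPM in NCoR1-KO amygdala and 8.68 ± 0.374 TPM in SMRT-KO amygdala (SD, n = 3 each), against 10.9 ± 1.15 TPM in control amygdala (SD, n = 4). Its SMRT-KO libraries were below all controls there (unadjusted p = 0.00742, limma adjusted p = 0.102). Those of Ttc19 were above all controls (unadjusted p = 0.005, limma adjusted p = 0.093). In NCoR1-KO hippocampus, Ttc19 averaged 73.1 TPM and Pigl 9.50 TPM, against 74.6 TPM and 11.5 TPM in control hippocampus. Zswim7, the next gene past Ttc19, averaged 84.8% of control in NCoR1-KO amygdala and 90.0% in NCoR1-KO hippocampus. Neither Ttc19 nor Pigl, nor the next neighbours Zswim7 and Cenpv, passed limma's test in any comparison. Between the knockouts, NCoR1-KO was below SMRT-KO for Ttc19 (log2 difference -0.165 in amygdala, -0.139 in hippocampus) and Zswim7 (-0.334 and -0.340). Their libraries did not overlap in either tissue, as for 38.4% of all genes in amygdala and 11.4% in hippocampus (limma unadjusted p 0.0234 to 0.0498). Pigl was higher in NCoR1-KO amygdala, by 0.162 without overlap, and Cenpv overlapped in both tissues. The library kit was stranded, but the sources used here do not say whether strand was used in quantification.

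The profile most like that of Ncor1 over the 20 libraries, each tissue centred on its own mean, was that of Tcp11l1. Likeness was measured as the root mean square difference in log2(TPM + 1), which was 0.325 for Tcp11l1, 0.445 for Chi3l1 and 0.491 for Aox4, against a median of 0.716 over 14209 genes. A gene that did not vary would have 0.706, the spread of Ncor1 itself, so the median mostly reflects that spread. Tcp11l1 averaged 9.62 ± 2.14 TPM in NCoR1-KO amygdala and 23.3 ± 1.43 TPM in SMRT-KO amygdala (SD, n = 3 each), against 21.2 ± 7.43 TPM in control amygdala (SD, n = 4). In hippocampus it averaged 9.84 ± 3.33 TPM in NCoR1-KO libraries and 18.7 ± 3.09 TPM in SMRT-KO (SD, n = 3 each), against 23.9 ± 6.60 TPM in controls (SD, n = 4). Chi3l1, a secreted chitinase-like protein, averaged 7.08 TPM in NCoR1-KO amygdala and 15.0 TPM in SMRT-KO amygdala, against 12.1 TPM in control amygdala. Aox4, an aldehyde oxidase, averaged 1.40 TPM in NCoR1-KO amygdala and 5.36 TPM in SMRT-KO amygdala, against 4.19 TPM in control amygdala. In hippocampus, Chi3l1 averaged 8.33 TPM in NCoR1-KO libraries, which overlapped control, and 16.7 TPM in SMRT-KO, against 11.2 TPM in controls. Aox4 was low there, at 0.800 TPM in NCoR1-KO libraries and 2.73 TPM in SMRT-KO, against 2.71 TPM in controls. Against SMRT-KO amygdala, NCoR1-KO amygdala was lower by limma's test for Tcp11l1 (log2 difference -1.21, adjusted p = 0.0172), Chi3l1 (-0.99, adjusted p = 0.0115) and Aox4 (-1.48, adjusted p = 0.0127). The genes were picked for their likeness to Ncor1, which used these values, and none of the 3 passed against control in either tissue.

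**Figure D2:**
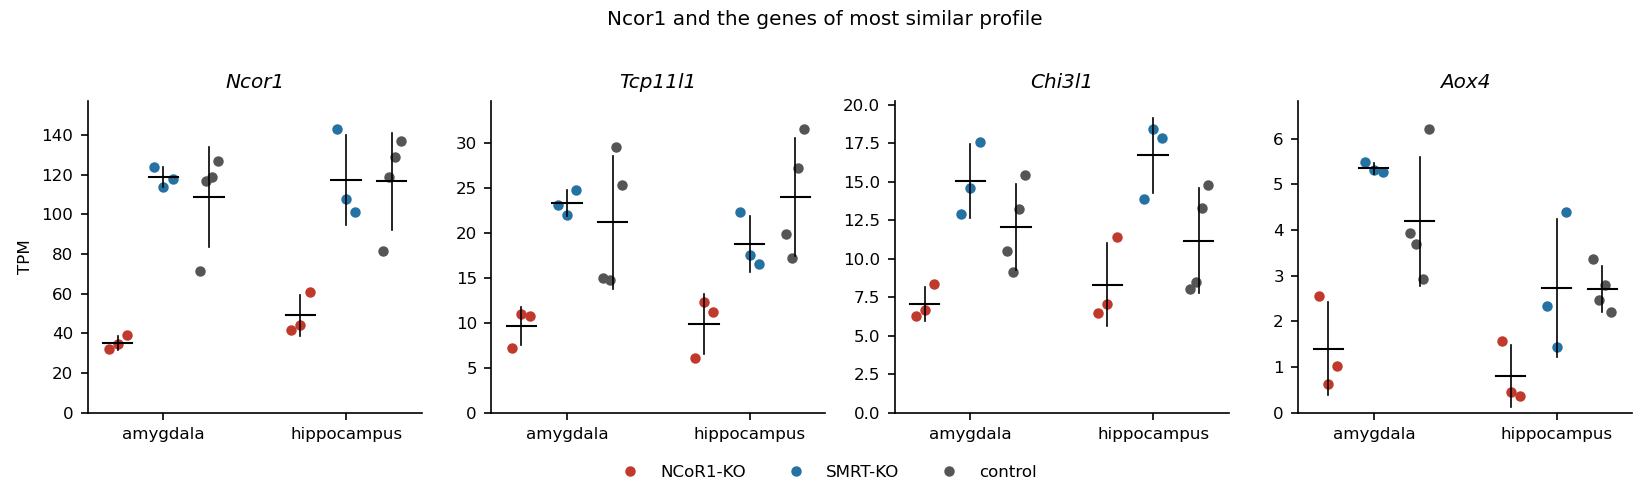
Level in TPM of Ncor1 and the 3 genes with the most similar profile in all 20 libraries, amygdala at the left and hippocampus at the right of each panel. Likeness was measured on another scale, log2(TPM + 1) after subtracting the mean of each tissue. On that scale, root mean square differences from Ncor1 were 0.325 for Tcp11l1, 0.445 for Chi3l1 and 0.491 for Aox4.

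Hdac3, the catalytic subunit, did not pass against control in either knockout, but passed in amygdala when the knockouts were compared with each other. It had 133, 137 and 130 TPM in NCoR1-KO amygdala and 120, 112 and 114 TPM in SMRT-KO amygdala, against 137, 126, 132 and 131 TPM in control amygdala. The SMRT-KO libraries were below all 7 others, and the NCoR1-KO libraries lay within the control range. NCoR1-KO amygdala was higher than SMRT-KO amygdala by a log2 difference of 0.21 ± 0.05 (SE; 95% interval 0.10 to 0.32; limma adjusted p = 0.0241). The adjusted p was 0.0562 without NCoR1-KO replicate 1, 0.0942 without NCoR1-KO replicate 2, 0.0916 without SMRT-KO replicate 2 and 0.0911 without SMRT-KO replicate 3. Against control amygdala, Hdac3 differed in SMRT-KO by -0.19 ± 0.04 (SE; 95% interval -0.29 to -0.09; limma adjusted p = 0.0658), and passed only without SMRT-KO replicate 1, at -0.22 with an adjusted p of 0.0405. In NCoR1-KO amygdala the difference from control was 0.020 ± 0.045 (95% interval -0.08 to 0.12), a span that does not reach the size of the difference of Ncor1 there.

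In hippocampus, Hdac3 had 114, 119 and 106 TPM in NCoR1-KO libraries and 116, 110 and 119 TPM in SMRT-KO, against 117, 110, 124 and 111 TPM in controls, and the 3 groups overlapped. Its log2 difference from control was -0.025 ± 0.061 in NCoR1-KO and -0.009 ± 0.061 in SMRT-KO. The effect of SMRT-KO differed between amygdala and hippocampus by -0.18 ± 0.07 (SE), with an unadjusted p of 0.0225 and an adjusted p of 0.474 by limma's test. Beside the amygdala values, the 5 striatal markers measured summed to 599 to 1004 TPM in SMRT-KO and 251 to 534 TPM in NCoR1-KO, against 183 to 649 TPM in controls. The 6 oligodendrocyte markers summed to 7306 to 10992 TPM in SMRT-KO and 3583 to 4901 TPM in NCoR1-KO amygdala, against 2447 to 8725 TPM in control amygdala, and the 6 microglial markers to 351 to 384 TPM in SMRT-KO and 272 to 288 TPM in NCoR1-KO, against 298 to 379 TPM in controls. No marker of these lists was at 0 in every library of an amygdala group. The part of these cell types and regions in the Hdac3 and Hdac7 values was not tested.

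The ratio of scaffold to deacetylase messages was lowest in NCoR1-KO libraries of both tissues. Ncor1 over Hdac3 was 0.241 to 0.299 in NCoR1-KO amygdala and 1.018 to 1.040 in SMRT-KO amygdala, against 0.519 to 0.964 in control amygdala. The SMRT-KO ratios stood above all control ratios in amygdala, where Ncor1 itself overlapped control and Hdac3 averaged 87.5% of control. In hippocampus it was 0.366 to 0.574 in NCoR1-KO libraries and 0.847 to 1.238 in SMRT-KO, against 0.696 to 1.243 in controls. These ratios of TPM, which are per length, are descriptions with no test, and the lowest control ratio in each tissue came from control 1.

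Tbl1x and Tbl1xr1 encode related WD40-repeat proteins that bind histones and take part in the exchange of corepressors for coactivators. Tbl1x had 45.3, 55.1 and 50.5 TPM in NCoR1-KO amygdala and 54.1, 52.7 and 55.8 TPM in SMRT-KO amygdala, against 49.1, 47.5, 54.7 and 46.8 TPM in control amygdala. In hippocampus it had 36.6, 41.4 and 38.7 TPM in NCoR1-KO libraries and 36.6, 38.3 and 31.6 TPM in SMRT-KO, against 38.7, 42.9, 36.2 and 38.4 TPM in controls. Genotypes overlapped within each tissue, whereas every amygdala library was above every hippocampus library. The log2 difference of SMRT-KO from control was 0.13 ± 0.07 in amygdala and -0.14 ± 0.08 in hippocampus, and the difference between these effects was 0.27 ± 0.11 (SE; unadjusted p = 0.0297, limma adjusted p = 0.514). Tbl1xr1 ranged from 44.4 to 51.3 TPM in the 10 amygdala libraries and from 44.2 to 59.5 TPM in the 10 hippocampus libraries. Its log2 difference from control was -0.005 ± 0.058 in NCoR1-KO amygdala (95% interval -0.13 to 0.12) and -0.009 ± 0.058 in SMRT-KO amygdala (95% interval -0.14 to 0.12), and it was 0.063 ± 0.092 in NCoR1-KO and -0.054 ± 0.092 in SMRT-KO hippocampus.

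The ratio of the pair separated the tissues. Tbl1x over Tbl1xr1 was 0.983 to 1.184 in the 10 amygdala libraries, with a median of 1.110, and 0.648 to 0.892 in the 10 hippocampus libraries, with a median of 0.711. No amygdala library overlapped a hippocampus library, whatever the genotype. The ratio has no test of its own.

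Gps2, a small subunit that also limits inflammatory signalling, had 24.5, 22.4 and 21.4 TPM in NCoR1-KO amygdala and 21.4, 22.4 and 20.6 TPM in SMRT-KO amygdala, against 29.8, 20.7, 26.7 and 24.8 TPM in control amygdala. In hippocampus it had 25.0, 27.6 and 23.3 TPM in NCoR1-KO libraries and 20.3, 25.1 and 20.9 TPM in SMRT-KO, against 23.1, 26.5, 27.7 and 25.4 TPM in controls. SMRT-KO means were below control means in both tissues, but the libraries overlapped. The log2 difference of SMRT-KO from control was -0.23 ± 0.10 in amygdala (SE; 95% interval -0.46 to 0.004; limma adjusted p = 0.236) and -0.21 ± 0.10 in hippocampus (95% interval -0.42 to 0.003; adjusted p = 0.779).

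Class IIa deacetylases have little enzymatic activity of their own and repress MEF2 transcription factors in neurons. Hdac5, the most abundant of the 4, made up 49.3% to 57.6% of their summed TPM in the 20 libraries. The sum averaged 169 ± 7.15 TPM in NCoR1-KO amygdala and 160 ± 7.18 TPM in SMRT-KO amygdala (SD, n = 3 each), against 164 ± 5.85 TPM in control amygdala (SD, n = 4). In hippocampus it averaged 136 ± 5.70 TPM in NCoR1-KO libraries and 146 ± 10.4 TPM in SMRT-KO (SD, n = 3 each), against 144 ± 6.38 TPM in controls (SD, n = 4).

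Hdac7 had 16.1, 16.5 and 15.7 TPM in NCoR1-KO amygdala and 14.7, 12.9 and 13.6 TPM in SMRT-KO amygdala, against 19.3, 16.4, 15.5 and 17.2 TPM in control amygdala. As for Hdac3, the 3 SMRT-KO libraries were below the other 7 of the tissue. The log2 difference of SMRT-KO from control was -0.30 ± 0.08 (SE; 95% interval -0.47 to -0.12), with an adjusted p of 0.0824 by limma's test, so it did not pass. NCoR1-KO was above SMRT-KO by 0.22 ± 0.09, also without passing (adjusted p = 0.11). In hippocampus, Hdac7 had 13.1, 13.5 and 14.4 TPM in NCoR1-KO libraries and 13.6, 14.7 and 10.7 TPM in SMRT-KO, against 16.0, 13.6, 15.0 and 13.7 TPM in controls, with overlap.

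Hdac9, which has splice forms without a catalytic domain, had the smallest unadjusted p after Ncor1 of the 10 members between the knockouts in hippocampus. It had 28.2, 28.7 and 29.4 TPM in NCoR1-KO hippocampus and 32.5, 33.9 and 35.5 TPM in SMRT-KO hippocampus, against 29.1, 31.5, 32.2 and 31.8 TPM in control hippocampus. All SMRT-KO libraries were above all NCoR1-KO and control libraries. NCoR1-KO differed from SMRT-KO by -0.23 ± 0.06 (SE; 95% interval -0.37 to -0.09), with an unadjusted p of 0.00394 and an adjusted p of 0.704 by limma's test. In amygdala, Hdac9 overlapped between groups, at 34.2 to 41.4 TPM in NCoR1-KO libraries and 33.6 to 40.0 TPM in SMRT-KO, against 30.5 to 41.1 TPM in controls. Beside the hippocampal values, the 6 thalamic markers summed to 134, 621 and 65.4 TPM in SMRT-KO replicates 1, 2 and 3. They summed to 77.9 to 106 TPM in NCoR1-KO, against 94.1 to 182 TPM in controls. High thalamic markers were thus a trait of SMRT-KO replicate 2, not of the group, and their part in the Hdac9 values was not tested.

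Hdac4 and Hdac5 gave no difference that passed between genotypes. Hdac4 ranged from 19.8 to 27.6 TPM in amygdala and from 18.5 to 28.8 TPM in hippocampus, with its highest hippocampal value in control 2. Its log2 difference from control was 0.004 ± 0.107 in NCoR1-KO amygdala and 0.08 ± 0.11 in SMRT-KO amygdala, and -0.036 ± 0.132 in NCoR1-KO and -0.14 ± 0.13 in SMRT-KO hippocampus. Hdac5 had 91.1, 88.4 and 93.3 TPM in NCoR1-KO amygdala and 84.2, 90.4 and 80.9 TPM in SMRT-KO amygdala, against 88.8, 86.0, 84.4 and 89.8 TPM in control amygdala. In hippocampus it had 71.3, 71.8 and 65.7 TPM in NCoR1-KO libraries and 73.6, 90.9 and 68.0 TPM in SMRT-KO, against 70.2, 79.4, 73.8 and 73.2 TPM in controls. SMRT-KO replicate 2 was the one hippocampus library at amygdala levels. In that library the 6 thalamic markers summed to 621 TPM, against 65.4 to 182 TPM in the other hippocampus libraries, and the 6 oligodendrocyte markers to 26439 TPM, the highest of the tissue. Without it, Hdac5 differed by -0.066 in SMRT-KO against control hippocampus, in place of 0.053 with it, and passed in neither. The part of those tissues in its Hdac5 value was not tested.

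Zbtb33, or Kaiso, gave no difference that passed. It ranged from 22.8 to 30.4 TPM in amygdala and from 23.8 to 28.4 TPM in hippocampus, with overlap of all groups. Its log2 difference from control was -0.044 ± 0.091 in NCoR1-KO amygdala and -0.077 ± 0.091 in SMRT-KO amygdala, and 0.019 ± 0.070 in NCoR1-KO and -0.11 ± 0.07 in SMRT-KO hippocampus.

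Counted over the 10 members, 1 passed in NCoR1-KO against control amygdala, Ncor1, in a comparison where 0.411% of 14606 genes passed. None passed in SMRT-KO against control amygdala, where 0.110% of genes passed. There, 2 members, Hdac3 and Hdac7, and 22.0% of all genes had an unadjusted p under 0.05. In NCoR1-KO against SMRT-KO amygdala 2 passed, Ncor1 and Hdac3, while 11.5% of all genes did, which is within 1 member of that share. None passed in the 3 hippocampal comparisons, where 0% of 14501 genes passed. At an unadjusted p under 0.05 by limma's test there were 1 member in NCoR1-KO against control and 0 in SMRT-KO against control hippocampus. There were 2 in NCoR1-KO against SMRT-KO hippocampus. The shares of all genes were 4.54%, 5.61% and 6.59% in the same order. The 1 member was Ncor1, the gene deleted in NCoR1-KO, and the 2 were Ncor1 and Hdac9.

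Groups that did not overlap were counted the same way. In amygdala this held for 1 member in NCoR1-KO against control (12.1% of all genes), 2 in SMRT-KO against control (18.0%) and 3 in NCoR1-KO against SMRT-KO (38.4%). In hippocampus it held for 1 member in NCoR1-KO against control (8.09%), 1 in SMRT-KO against control (4.78%) and 2 in NCoR1-KO against SMRT-KO (11.4%). Each of these counts is within 1 member of what the share over all genes gives for 10 genes. Ncor1, the gene deleted in NCoR1-KO, was the 1 member apart from control in both tissues, and was among those apart between the knockouts. The NCoR1-KO counts were therefore partly set by the design. Without Ncor1, no member had NCoR1-KO libraries apart from control in either tissue. The median log2 difference of the 10 members was -0.001 in NCoR1-KO and -0.022 in SMRT-KO against control amygdala, beside -0.026 and -0.027 over all genes, and -0.030 and -0.083 in hippocampus, beside 0.000 and -0.018. No member passed the test of a difference between tissues in the effect of NCoR1-KO or of SMRT-KO (0% of 14210 genes in both). At an unadjusted p under 0.05 there were 0 members and 3.67% of genes for NCoR1-KO, and 2 members, Hdac3 and Tbl1x, and 8.85% of genes for SMRT-KO.

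**Figure D3:**
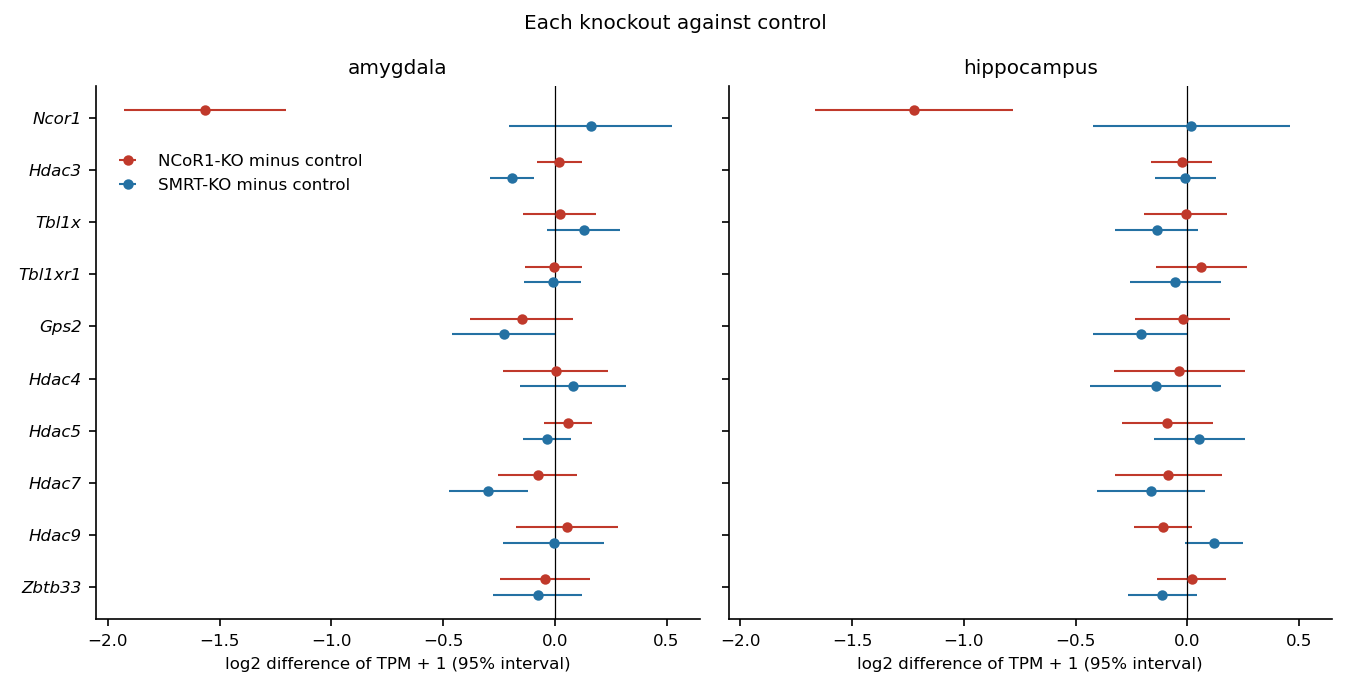
Log2 difference in log2(TPM + 1) from control for each of the 10 members, NCoR1-KO and SMRT-KO in amygdala and hippocampus, with 95% intervals of limma's fit. Ncor1 in NCoR1-KO stands at -1.57 in amygdala and -1.22 in hippocampus, and the other members lie between -0.30 and 0.13.

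Between the tissues of control mice, Hdac3, Tbl1x and Hdac5 were higher in amygdala. They were 3 of 10 members higher in amygdala and 0 lower, in a comparison where 32.5% of 14210 genes passed, 19.3% higher and 13.2% lower. Tbl1x differed by a log2 difference of 0.33 ± 0.07 (SE; 95% interval 0.18 to 0.49; limma adjusted p = 0.00204), Hdac3 by 0.19 ± 0.05 (0.09 to 0.29; adjusted p = 0.00529) and Hdac5 by 0.23 ± 0.07 (0.09 to 0.38; adjusted p = 0.0144). The same 3 had control libraries that did not overlap between tissues, which held for 32.6% of all genes. Without control replicate 1 of each tissue, an alternative chosen after seeing the data, Hdac5 differed by 0.20 with an adjusted p of 0.09. The tissues were deposited as separate tables, each library scaled to the same total.

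Hdac9 (0.21 ± 0.08, adjusted p = 0.0502) and Hdac7 (0.22 ± 0.09, adjusted p = 0.0653) lay just short of the threshold in limma's test. Hdac9 passed without amygdala control replicate 1, at 0.29 with an adjusted p of 0.00513, and without amygdala NCoR1-KO replicate 1 (0.0441) or 3 (0.0458), amygdala SMRT-KO replicate 2 (0.0418) or hippocampus SMRT-KO replicate 3 (0.0492). Hdac7 passed without hippocampus control replicate 1 (adjusted p = 0.0455), hippocampus SMRT-KO replicate 2 (0.0448) or 3 (0.0254), or amygdala control replicate 3 (0.0451). Ncor1 (-0.11 ± 0.18), Tbl1xr1 (-0.13 ± 0.07), Gps2 (-0.017 ± 0.096), Hdac4 (-0.031 ± 0.116) and Zbtb33 (0.033 ± 0.076) did not pass.

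**Figure D4:**
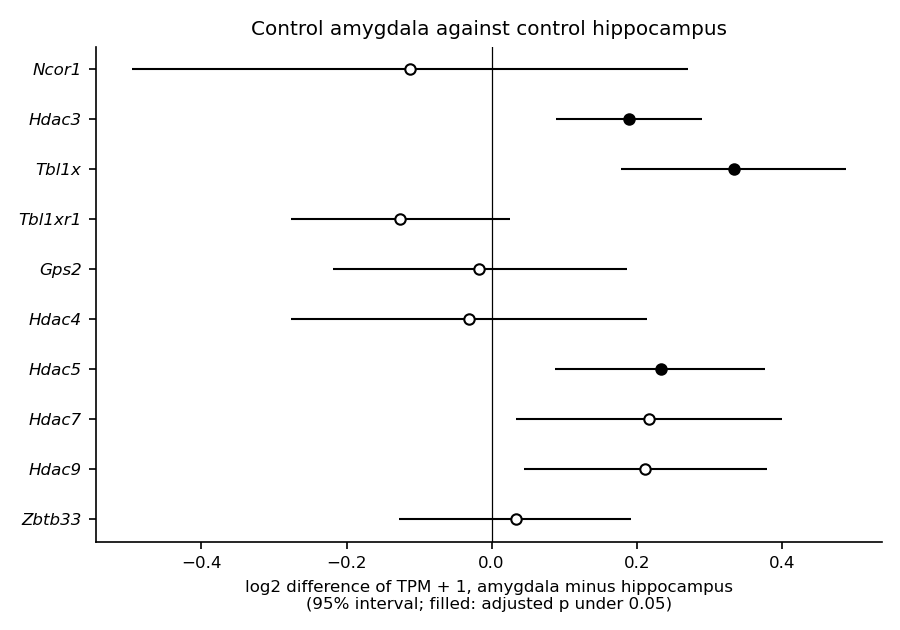
Log2 difference of control amygdala minus control hippocampus for each of the 10 members, with 95% intervals of limma's fit over all 20 libraries. Tbl1x (0.33), Hdac5 (0.23) and Hdac3 (0.19) passed the threshold.

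Windows of 250 bases before RefSeq starts were read for 9 of the 10 members, with 14 starts in all, and Hdac3 was left out of this search. Not every window lies before the whole gene: that of one Ncor1 start (chr11:62438516-62438765) is inside the span of Ncor1. For the starts of Tbl1x, Hdac5 and Hdac9, the bases just after the start were not found in a GENCODE M21 transcript of the gene. A TATA box (TATAAA) was in 1 of the 14 windows, at a start of Hdac9, beside 12.4% of 32851 windows of all genes, and a GC box (GGGCGG) in 6 of 14, beside 32.7%. The nuclear receptor motif AGGTCA was in 2 of 14, 1 start of Hdac7 and 1 of Hdac9, beside 14.0%, and the Kaiso motif TCCTGCNA in 0 of 14, beside 4.03%. Both strands were searched, none of these motifs contains another, and a match is a description of letters only. CG pairs ranged from 0 at a start of Hdac9 to 36 at Tbl1x, beside a median of 6. The window of Hdac5, the class IIa member that passed between tissues, is shown as an example clear of annotated exons (chr11:102230173-102230422, minus strand, GRCm38.p6, RefSeq), with its GC box in capitals and 12 CG pairs.
Hdac5 upstream window: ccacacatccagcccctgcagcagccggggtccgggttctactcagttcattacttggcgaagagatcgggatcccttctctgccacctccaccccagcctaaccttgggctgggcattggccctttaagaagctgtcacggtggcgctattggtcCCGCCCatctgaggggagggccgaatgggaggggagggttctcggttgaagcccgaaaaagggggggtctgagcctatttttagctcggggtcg

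Other genes of the pathway were read from lists of proteins that bind the complex, other deacetylases, partners and kinases of class IIa deacetylases, receptors that recruit the complex, and coactivators. None of the 13 other deacetylases, 20 class IIa partners, 15 receptors and 9 coactivators tested passed limma's test against control in either knockout or tissue. The median log2 difference of the 15 receptors in SMRT-KO against control amygdala was 0.14, beside -0.027 over all genes, with 11 above 0 and 4 below. At an unadjusted p under 0.05 were 6 of the 15, and 22.0% of all genes. The 6 did not share a direction: Thra, at 507 TPM in SMRT-KO against 585 TPM in control amygdala, was lower (-0.21, limma unadjusted p = 0.011), while Rarb (0.74) and Pparg (0.56) were higher. In the same comparison all 5 striatal markers measured were above control, with a median log2 difference of 1.15, and all 6 oligodendrocyte markers were, with a median of 0.83. Their part in the receptor values was not tested. Among proteins that bind the complex, Bcl6, a repressor that recruits corepressors, averaged 59.3 ± 2.99 TPM in NCoR1-KO hippocampus and 44.1 ± 4.88 TPM in SMRT-KO hippocampus (SD, n = 3 each), against 44.8 ± 0.554 TPM in control hippocampus (SD, n = 4). Its unadjusted p in NCoR1-KO against control hippocampus was 0.000244 and its adjusted p 0.885.

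Between NCoR1-KO and SMRT-KO amygdala, where 11.5% of all genes passed, 8 genes of the last 4 lists passed. Higher in NCoR1-KO were the deacetylases Hdac11 (log2 difference 0.42, adjusted p = 0.0115) and Hdac6 (0.20, adjusted p = 0.0467), the 14-3-3 protein Ywhab (0.19, adjusted p = 0.0267), the receptor Nr1d1 (0.52, adjusted p = 0.0155) and the arginine methyltransferase Carm1 (0.22, adjusted p = 0.0377). Lower in NCoR1-KO were the kinases Camk4 (-0.80, adjusted p = 0.0013) and Camk2g (-0.33, adjusted p = 0.0438) and the acetyltransferase Kat2b (-0.41, adjusted p = 0.0477). Camk4, a kinase that phosphorylates class IIa deacetylases, averaged 107 ± 7.47 TPM in NCoR1-KO amygdala and 187 ± 14.0 TPM in SMRT-KO amygdala (SD, n = 3 each), against 137 ± 12.2 TPM in control amygdala (SD, n = 4). The 2 knockouts thus lay on either side of control for Camk4, with adjusted p of 0.0846 for NCoR1-KO and 0.0572 for SMRT-KO against control.

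Between control amygdala and control hippocampus, 10 of the 20 class IIa partners tested passed, 5 in each direction, where 32.5% of all genes passed, 19.3% higher and 13.2% lower. Higher in amygdala were Camk2d (log2 difference 2.59), Mef2c (1.99), Camk1 (1.12), Camk4 (0.55) and Camk2g (0.30), and lower were Camk2b (-0.73), Prkd1 (-0.65), Camk2a (-0.53), Mef2a (-0.40) and Sik3 (-0.25). Of 15 receptors, Rxrg (2.11), Rarb (0.97), Thrb (0.51) and Pparg (0.45) were higher and Rara (-0.63) was lower. Of 13 other deacetylases, Hdac11 (0.60) and Hdac6 (0.25) were higher and Sirt2 (-0.76) and Hdac1 (-0.41) lower. Zbtb16 (-1.18), Bcl6 (-0.62) and Kdm4a (-0.22) were lower among the proteins that bind the complex, and among 9 coactivators Kat2a (0.12) was higher and Ncoa3 (-0.33), Ncoa1 (-0.28) and Med1 (-0.21) were lower.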

How the data were processed

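Total RNA from amygdala and hippocampus of 20 libraries was sequenced. The deposited values are gene-level TPM made by the authors, 1 table per tissue. The submitters' processing notes name RSEM 1.3.3, STAR 2.5.3a, fastp 0.21.0 and bcl2fastq, with no role or order, and mm10 as the genome build. The annotation behind the deposited tables was not given in the sources used here. TPM keep no depth. There were 0 columns of other samples.

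Log2(TPM + 1) was fitted with limma 3.58.1 in R 4.3.3, with a trend in the variance, over all 10 libraries of a tissue, with 3 genotypes as groups. Genes at 1 TPM or more in at least 3 libraries of a tissue were tested. Comparisons between tissues used all 20 libraries and the 14210 genes that passed in both. Benjamini-Hochberg adjustment ran over all tested genes, with a threshold of 0.05, and a log2 difference understates the change of low genes. The procedure was tested on simulated data. Named besides the members were the 3 profiles nearest to Ncor1 (unnamed and sex-linked genes skipped), its 2 neighbours on each side, Snap25 and, from each pathway list, genes that passed in a comparison and genes of smallest p. The members and lists were chosen with earlier results of these data known. Alternatives were another pseudocount, other filters, quantile normalization, leaving out the ribosomal RNA precursor Rn45s, a replicate block, fits of only the groups compared and leaving out each library. In comparisons between tissues, the block was a test of differences within same-numbered pairs. Positions are from GENCODE M21 (GRCm38), and promoter sequences from RefSeq (GRCm38.p6). Some results are not reported here.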

Additional observations from a re-analysis of the deposited data

Results flagged for a closer look

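Ncor1 in control amygdala was 71.3 TPM in control 1, while the other 3 controls had 117, 119 and 127 TPM. The gap between control 1 and its nearest neighbour, divided by the range of the group, was 0.834, above the critical value of 0.829 for 4 samples. Control 1 also had the lowest Ncor1 of the control hippocampus libraries, at 81.6 TPM, where the gap was not large enough to be marked.

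Hdac4 in control hippocampus was 28.8 TPM in control 2, while the other 3 controls had 23.3, 22.4 and 22.5 TPM. The same measure was 0.858. Control 2 also had the highest sum of the 5 striatal markers among hippocampus libraries, at 203 TPM, and the part of striatal tissue in the Hdac4 value was not tested. In all, 20 groups of 4 libraries were checked, 2 were marked, and chance marks about 1 in 20.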

How the results depend on the processing

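Over the 10 members, 1870 of 1890 log2 differences under the alternatives kept their direction or stayed uncalled as before, 7 lost a call, 13 gained one, and none reversed while called. A change of sign among uncalled values occurred 102 times. Counts over all genes moved more. In NCoR1-KO against control amygdala (60 genes), 16 passed with no filter, 4 with only the groups compared, and 3 without control replicate 1. In SMRT-KO against control amygdala (16 genes), 2 passed with no filter, 143 at a mean of 5 TPM or more and 5 without Rn45s. There, 2 passed with only the groups compared and 1 without control replicate 1. Leaving out control replicate 1 of each tissue was a setting chosen after seeing the data. Within a single tissue it is the same fit as the planned one without control replicate 1, and it is counted again among the 1890 values. In hippocampus (0 genes in each comparison), 1 passed after quantile normalization in each knockout against control, and with only the groups compared 1 passed in NCoR1-KO against control and 5 in NCoR1-KO against SMRT-KO. With no filter, 1 gene passed for the SMRT-KO effect between tissues. The cause of these shifts was not tested.

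Leaving out each library in turn gave 0 to 126 genes and 0 to 1 members in NCoR1-KO against control amygdala, with 3, 126 and 14 genes without control 1, 2 and 3, 7, 0 and 17 without NCoR1-KO 1, 2 and 3, and 26, 24 and 10 without SMRT-KO 1, 2 and 3. It gave 0 to 697 genes and 0 to 1 members in SMRT-KO against control amygdala, with 57 without control 3, 697 without SMRT-KO 1, 0 without SMRT-KO 3, and 1 or 2 without any other library. It gave 246 to 2218 genes and 1 to 2 members in NCoR1-KO against SMRT-KO amygdala, with 647, 344 and 911 without NCoR1-KO 1, 2 and 3, and 335 and 246 without SMRT-KO 2 and 3. The hippocampal comparisons gave 0 to 1 genes each, the SMRT-KO effect between tissues 0 to 18 genes, and the tissue comparison 3 to 5 members (5 without hippocampus SMRT-KO 3).

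Replicate numbers are shared by the groups, but nothing in the labels says that they pair libraries. Same-numbered libraries of a genotype in amygdala and hippocampus deviated together with a median correlation of 0.147 over 10 pairs, over 0.1 in 8 of 10, and 15 of 20 libraries correlated best with their own number. Within a tissue the median was -0.088. With the replicate number as a block, 4 genes passed in SMRT-KO against control amygdala, and 854 genes and 1 member, Ncor1, in NCoR1-KO against SMRT-KO amygdala, where Hdac3 had an adjusted p of 0.0562. Between tissues, this setting instead took same-numbered libraries of a genotype as pairs and tested their differences, a pairing that the labels do not give. Hdac9 passed between tissues in that paired form (limma adjusted p = 0.027) and, unpaired, at a mean of 5 TPM or more (0.0476).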
